A study of Mus musculus with 24 samples.

Results

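The RNA of small intestinal organoids labelled as lacking CDK19 alone was compared with that of organoids labelled as lacking both CDK8 and CDK19, a comparison that asks for the transcriptional effect of deleting Cdk8 where its paralog is already mutated. The members were the 3 libraries labelled double knockout and the 3 labelled Cdk19-/-, 6 of the 24 libraries of the series, taken by their titles. Organoids are three-dimensional epithelial cultures that grow from intestinal stem cells and hold crypt-like and differentiated cells. Organoids with the Villin-CreERT2 transgene came from the small intestine of Cdk8 lox/lox mice, in which loxP sites flank exon 2. Those without it are described in 1 place as from Cdk8 lox/lox mice and in another as from WT mice, and no source gives the mice by library. By the methods, both sets carried a Cdk19 mutation made with a lentivirus that brings Cas9 and a guide RNA to exon 1, and both were kept for 7 days in 600 nM 4-hydroxytamoxifen before lysis. Deletion of Cdk8 needs Villin-CreERT2, a recombinase fused to a hormone-binding part of the oestrogen receptor and expressed from an epithelial promoter. By both descriptions, organoids that keep Cdk8 after tamoxifen lack the transgene, so the deletion of Cdk8, the presence of the recombinase and the mice of origin cannot be told apart within this comparison. Transduced organoids were selected with puromycin and single organoids were expanded as clones, so libraries of a genotype can differ as clones do, and the sources used here do not say which clone gave which library. The labels call the 3 libraries of a group biological triplicates. The 6 other genotype libraries (3 WT and 3 Cdk8-/-) entered the same model.

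CDK8 and CDK19 are the alternative kinases of the Mediator kinase module, in which they bind cyclin C, MED12 and MED13. Mediator links transcription factors bound at enhancers to RNA polymerase II, and the kinase module docks on it reversibly and modifies which of these contacts are made. In the small intestine, Wnt and Notch signals keep Lgr5-positive stem cells dividing at the crypt base, whereas their daughters become absorptive enterocytes or secretory goblet, Paneth, enteroendocrine and tuft cells. In bulk RNA from such a mixture, fewer cells of a type and less RNA per cell cannot be told apart.

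Normalised read counts of the targeted genes were examined first. The Cre line deletes exon 2 of Cdk8 (chr5:146259505-146259580, plus strand, GRCm38), which is 76 bases long and leaves a remainder of 1 when divided by 3. It is shown here because its loss is the only designed difference between both genotypes at this gene, with exon 2 in capitals between the last 24 bases of exon 1 and the first 24 bases of exon 3 in transcript Cdk8-201:
Cdk8 exon 2: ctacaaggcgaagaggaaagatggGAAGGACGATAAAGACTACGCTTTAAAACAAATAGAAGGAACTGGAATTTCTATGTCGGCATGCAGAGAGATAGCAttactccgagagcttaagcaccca
With these 76 bases removed from the transcript, the reading frame met a stop codon after 56 codons, where the full transcript has 464. Exon 2 makes up 0.773% of the exonic bases of the gene (9832), so counts summed over the gene cannot show its loss.

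In double knockout replicates 1, 2 and 3 the level of Cdk8 (chromosome 5, 146231230 to 146302874) was 707, 659 and 645, and in the Cdk19-/- replicates, in the same order as everywhere below, 694, 694 and 726. These values overlapped (log2 fold change -0.07 ± 0.11, edgeR adjusted p = 0.67), where ± is an approximate standard error throughout. For Cdk19 (chromosome 10, 40339564 to 40483818) the double knockout libraries gave 403, 355 and 773 and those labelled Cdk19-/- 729, 420.1 and 422, beside 711, 749 and 726 in WT. The library labelled Cdk19-/- replicate 1 and the one labelled double knockout replicate 3 were thus at the level of WT, whereas the other 4 were below every WT library. These counts do not show loss of Cdk19 mRNA in both libraries. The methods name sequencing, qPCR and Western blotting as checks of the edit without tying them to single libraries, so whether both are mutant, and whether their labels are right, was not tested. If they are not mutant, the comparison is not of Cdk8 deletion alone. They are named below as both libraries at the WT level of Cdk19, and the counts of most gene lists described are also given without them. Esr1, whose hormone-binding part is in the CreERT2 fusion, had 393, 318 and 298 counts in the double knockout and 4.03, 2.92 and 2.96 in Cdk19-/-. Esr1 thus separated all libraries of both groups (log2 fold change 6.62 ± 0.29, edgeR adjusted p = 9.7e-08), and Esr1 was also at 286, 301 and 312 in the Cdk8-/- libraries. The plot of the targeted genes by library shows these values.

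**Figure D1:**
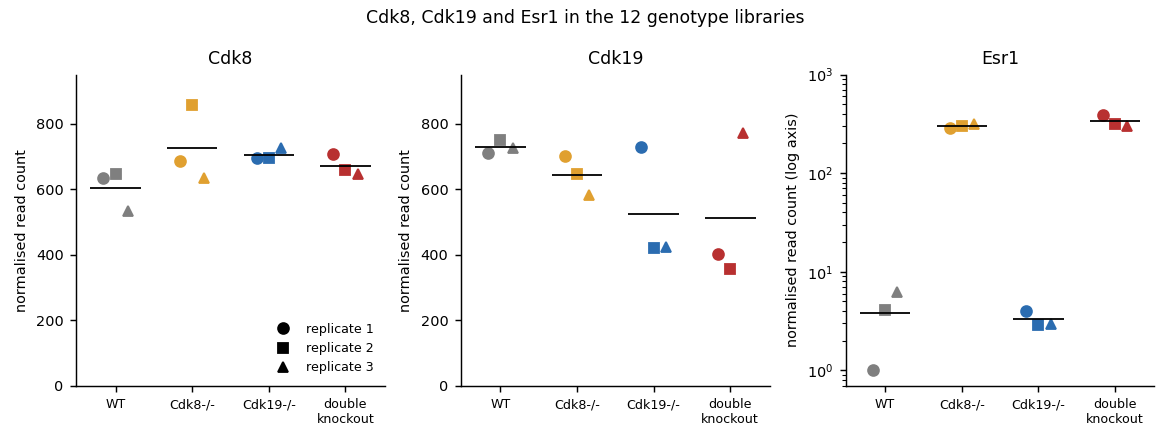
Normalised read counts of Cdk8, Cdk19 and Esr1 (the last on a log axis) in the 12 genotype libraries, 1 symbol per library by replicate number, with the mean of each group as a line. Cdk19 is at the WT level in Cdk19-/- replicate 1 (729) and double knockout replicate 3 (773), and Esr1 is high in the double knockout and Cdk8-/- libraries.

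Of the other kinase module genes, cyclin C (Ccnc) had 478, 449 and 444 counts in the double knockout and 383, 422 and 339 in Cdk19-/-, which did not overlap but missed the threshold (log2 fold change 0.26 ± 0.10, edgeR adjusted p = 0.062). Med12 (-0.08 ± 0.08, edgeR adjusted p = 0.49) and Med13 (0.31 ± 0.15, edgeR adjusted p = 0.15) also missed it, and Med12l was under the filter on low counts. Med13l, a paralog of the subunit that tethers the module to Mediator, fell by 0.36 on the log2 scale (edgeR adjusted p = 0.030), a call that was lost without double knockout replicates 1 or 2 or Cdk19-/- replicates 2 or 3 (edgeR adjusted p up to 0.11) and with the 6 libraries alone. Of the 26 genes of core Mediator, 0 rose and 4 fell (15.4% called, below the 25.3% of all genes tested), with 2 lower without double knockout replicate 1 or Cdk19-/- replicate 2 and 1 higher and 2 lower without both libraries at the WT level of Cdk19. Med16 (-0.38 ± 0.09) and Med25 (-0.33 ± 0.07) were 2 of the 4, and Med18 (-0.42 ± 0.14) was another, whose call was lost without double knockout replicates 1 or 3 or Cdk19-/- replicates 2 or 3, or without both libraries at the WT level (edgeR adjusted p up to 0.12) and with the 6 libraries alone, in DESeq2, without a filter and on the unstranded column.

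The 6 libraries were of nearly equal depth, with 14660042 to 15473180 reads counted on genes. The libraries labelled Cdk19-/- replicates 2 and 3 were closer to each other than the other pairs within these 2 genotypes, with a chi-square of 3.92 per gene against 21.9 to 34.8. They differed by more than sampling noise and entered as separate libraries, but this does not show that they come from separate clones or cultures. With 1 of them left out, 2399 (without replicate 2) or 2733 (without replicate 3) genes were deregulated, against 3953 below. Pairs of WT and Cdk8-/- libraries had 2.27 to 34.2. Genes of chromosome 19 stood apart in exactly these libraries. The median log2 level of its 411 protein-coding genes with at least 50 normalised counts was 0.43 above that of the 12 libraries in both, equal to 1.35-fold, and between -0.08 and 0.02 in the other 10 libraries. No other chromosome had a median beyond -0.05 to 0.06 in any library. Of the genes tested there, 200 of 542 were deregulated (36.9%), 156 of them lower in the double knockout, against 21.3 to 26.9% on the other 19 chromosomes shown. Without the genes of chromosome 19, 3794 of 15060 were called (25.2%), and members on this chromosome are named as such below.

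**Figure D2:**
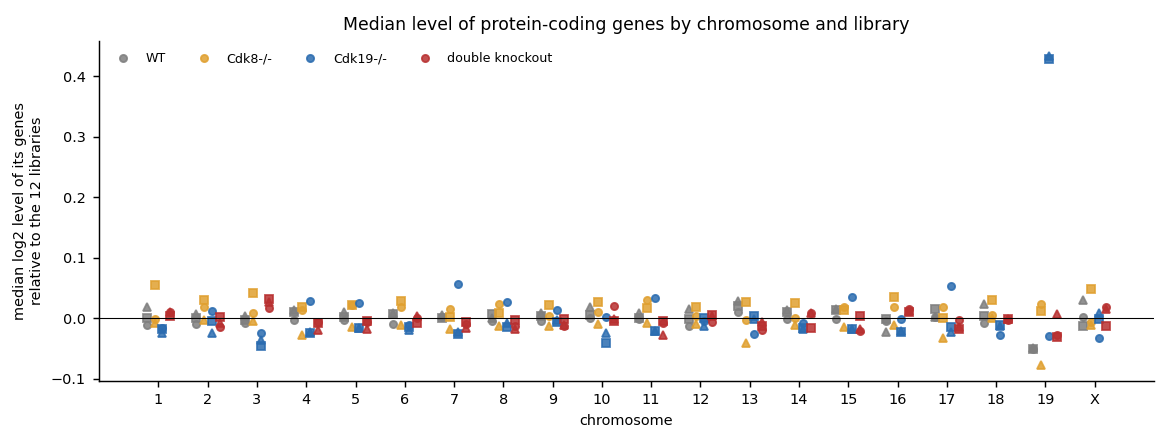
Median log2 level of the protein-coding genes of each chromosome in each of the 12 libraries, relative to the median of these libraries, coloured by genotype and with 1 symbol per replicate. Chromosome 19 is at 0.43 in Cdk19-/- replicates 2 and 3, and every other point lies between -0.08 and 0.06.

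The labels also name the cell type 4T1, which is a mouse mammary carcinoma line, beside the tissue intestinal organoids. Genes of the intestinal epithelium were abundant in all 6 libraries, with a summed level of 157301 to 166851 normalised counts over 10 genes in the double knockout and 126926 to 159221 in Cdk19-/-. The 8 mammary epithelium markers summed to 6.12 to 28.2 and 0 to 1.94 counts, with Krt14, Csn2 and Lalba at 0. The libraries thus carried the markers of the labelled tissue, and those of mammary epithelium were at or near 0. Krt20, a keratin of mature villus cells, had 4257, 3039.8 and 4164 counts in the double knockout and 662, 236 and 338 in Cdk19-/- (log2 fold change 3.21 ± 0.34, edgeR adjusted p = 0.00013). All double knockout libraries were above all Cdk19-/- libraries. By contrast the epithelial adhesion gene Epcam missed the threshold (-0.09 ± 0.09, edgeR adjusted p = 0.54), and Cdx2, the homeobox factor that specifies intestine, was slightly lower (-0.29 ± 0.09, edgeR adjusted p = 0.027), a call lost without double knockout replicate 2 or Cdk19-/- replicates 1 or 2, or without both libraries at the WT level (edgeR adjusted p up to 0.11) and with the 6 libraries alone and without a filter.

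Between the double knockout and Cdk19-/- organoids the expression of 3953 of the 15602 genes tested (25.3%) differed at an edgeR adjusted p under 0.05, called deregulated below. Among them 2241 were upregulated (14.4% of the genes tested) and 1712 downregulated (11.0%). Most changes were modest, with a median size of 0.66 on the log2 scale, and 1182 genes (7.58%) changed more than 2-fold, 860 upward (5.51%) and 322 downward (2.06%). Groups did not overlap for 3740 of the 3953 deregulated genes, which follows largely from the call itself, and for 6062 of all 15602 genes tested (38.9%). Without the libraries at the WT level of Cdk19, 4504 of 15821 genes tested were deregulated (28.5%), 2389 up (15.1%) and 2115 down (13.4%), and 3111 of the 3953 were among them. This setting leaves only Cdk19-/- replicates 2 and 3 on that side, the closest pair within these 2 genotypes. The spread within that group is therefore small there, and its part in the counts of this setting was not tested. Leaving out Cdk19-/- replicate 2 lowered the counts to 2399, 1364 up and 1035 down, and without Cdk19-/- replicate 3 1457 genes were upregulated. When the change itself was tested against 2-fold (glmTreat), 191 genes passed.

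The largest changes were sought among genes with a mean of at least 50 counts and groups that did not overlap. There the largest rise after Esr1 was that of Smoc1, a secreted calcium-binding protein, with 347, 190 and 379 counts in the double knockout and 5.04, 1.94 and 3.95 in Cdk19-/- (log2 fold change 6.35 ± 0.94, edgeR adjusted p = 0.00071). In Cdk8-/- it had 147, 85.7 and 101 and in WT 158, 183 and 7.31 counts, so the Cdk19-/- libraries were low beside all others but WT replicate 3. Chic1 had 126, 86.7 and 193 counts in the double knockout, 22.2, 0 and 0 in Cdk19-/- and 91.5, 106 and 47.0 in WT. Hoxa7, a homeobox gene of the anterior-posterior axis, had 93.8, 126 and 108 counts against 18.1, 0 and 0, and Aqp8, a water channel of absorptive cells, 155, 62.0 and 84.5 against 14.1, 0 and 0. For Chic1, Hoxa7 and Aqp8 all reads of the Cdk19-/- group were in the library labelled replicate 1, and replicates 2 and 3 had 0. Npl, which degrades sialic acid, rose from 11.1, 25.3 and 22.7 to 705, 274 and 227 counts (4.34 ± 0.57), and the adhesion receptor Adgrd1 from 28.2, 8.75 and 7.90 to 1131, 249 and 151 (5.09 ± 0.82). Both were highest in double knockout replicate 1, as was Chrna4, a nicotinic receptor subunit, at 276, 22.6 and 14.6 against 4.03, 0 and 1.97 (5.63 ± 1.43, lost without double knockout replicate 1 or Cdk19-/- replicates 2 or 3 (edgeR adjusted p up to 0.070)).

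Several of the largest changes were matched in size between Cdk8-/- and WT. By their labels these differ in Cdk8 as well, and by Esr1 in the recombinase. Zfp990, a zinc finger gene, had 88.7, 198 and 175 counts in Cdk19-/- and 0 in all double knockout libraries, so it was at least 51.7-fold lower at a floor of 3 counts per library. It was equally at 0 in the 3 Cdk8-/- libraries and present in WT (170, 153 and 102). The enolase copy Eno1b went the same way, from 549, 381 and 380.1 counts to 41.8, 33.5 and 12.6 (-3.90 ± 0.36), with 477, 475 and 504 in WT and 15.1, 36.7 and 14.4 in Cdk8-/-. The cytochrome P450 gene Cyp2c37 on chromosome 19 fell by 3.17 and the adhesion receptor Adgrf1 by 2.95 on the log2 scale, against -3.84 and -2.42 in Cdk8-/- against WT. In the opposite direction H2-Bl, a class I histocompatibility gene with close copies, rose from 32.2, 22.4 and 18.8 to 669, 491 and 738 counts (4.69 ± 0.27) and by 3.98 in Cdk8-/- against WT. Eno1b and H2-Bl share sequence with other genes of their families, so their counts are uncertain. Of the 207 genes tested within 10 Mb of Cdk8 on chromosome 5, 49 were deregulated (23.7%), 18 up and 31 down, close to the share over all genes.

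Other large falls had no call in Cdk8-/- against WT. Mmp14, a membrane-bound matrix protease, had 509.8, 587 and 541 counts in Cdk19-/- and 18.4, 0 and 2.91 in the double knockout (log2 fold change -6.27 ± 0.56, edgeR adjusted p = 6.3e-05), while Cdk8-/- libraries still had 449, 302 and 521. The 3 double knockout libraries were thus far below all others. Gif, the intrinsic factor that binds vitamin B12, had 1.02, 1.97 and 4.86 counts in the double knockout and 116, 179.9 and 52.3 in Cdk19-/- (-5.39 ± 0.60), beside 15.1, 9.24 and 6.26 in WT, and it lies on chromosome 19. Ptk7, a receptor of the Wnt planar polarity pathway, had 22.4, 6.89 and 16.5 against 44.3, 197 and 205 counts (-3.28 ± 0.80) and was much lower in Cdk19-/- replicate 1 than in replicates 2 and 3.

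Among the changes with the smallest p-values, Gda, a guanine deaminase gene on chromosome 19, rose from 222, 216 and 267 to 1621, 1280.1 and 1030.3 counts (log2 fold change 2.48 ± 0.15, edgeR adjusted p = 2.9e-06). Naip1, a sensor of bacterial proteins, rose from 549, 404 and 567 to 2132, 1801 and 1676 (log2 fold change 1.88 ± 0.14, edgeR adjusted p = 1.4e-05). Fgfr3, a growth factor receptor of crypt cells, fell from 625, 743 and 702 to 197, 236 and 233 counts (log2 fold change -1.63 ± 0.10, edgeR adjusted p = 2.0e-06), and Colca2 fell from 802, 824 and 906 to 239.7, 245 and 277 (log2 fold change -1.73 ± 0.16, edgeR adjusted p = 6.3e-05). Replicates of these 4 genes lay close together and their groups did not overlap.

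**Figure D3:**
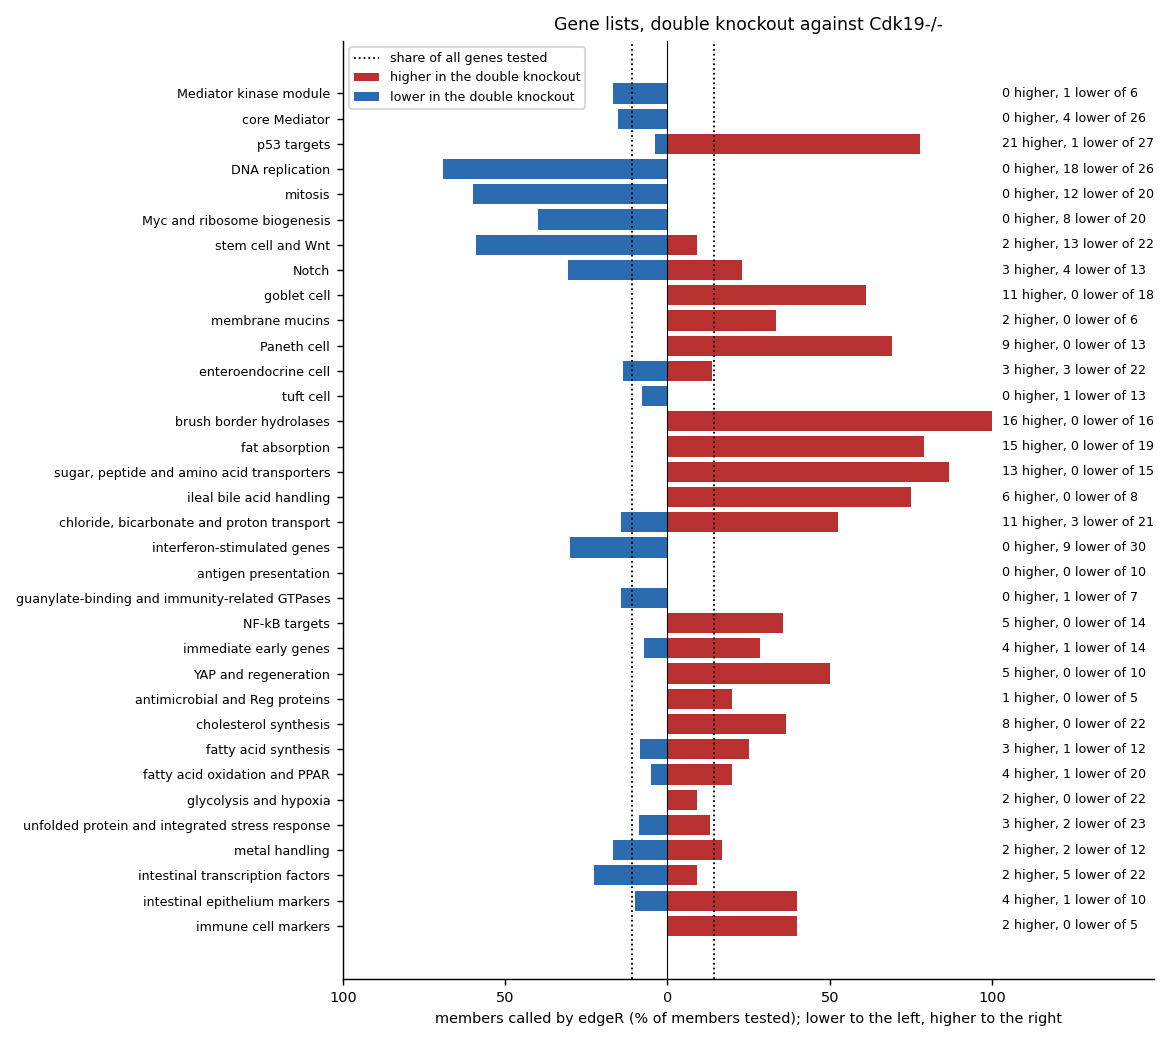
Share of the tested members of each gene list that edgeR called higher (to the right) or lower (to the left) in the double knockout than in Cdk19-/-, with the counts beside the bars and dotted lines at the shares of all genes tested (14.4% and 11.0%). The 4 lists of nutrient digestion and uptake have 13, 15, 16 and 6 members higher and 0 lower, and the replication and mitosis lists have 18 and 12 lower and 0 higher.

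The digestive enzymes of the enterocyte brush border rose throughout. All 16 hydrolases of the list were upregulated and 0 were downregulated, with a median log2 fold change of 1.63 against -0.01 over all genes tested. The count was 14 without both libraries at the WT level of Cdk19, with a median of 1.57. Lactase (Lct), which splits milk sugar, had 7474, 2518 and 4074 normalised counts in double knockout replicates 1, 2 and 3 against 972, 224 and 329 in Cdk19-/- (log2 fold change 3.21 ± 0.54, edgeR adjusted p = 0.0014), equal to 9.23-fold. Every double knockout library was above every Cdk19-/- library, and Cdk19-/- replicate 1 was the highest of its group. Tmprss15, the enteropeptidase that activates trypsinogen, rose from 6.04, 2.92 and 2.96 to 85.7, 194 and 38.8 counts (log2 fold change 4.70 ± 0.86, edgeR adjusted p = 0.0023), and Naaladl1, a peptidase gene on chromosome 19, from 79.6, 39.9 and 74.0 to 1344, 354 and 783 (log2 fold change 3.68 ± 0.57, edgeR adjusted p = 0.00085). Of members chosen for their roles after the values were seen, the peptidases Anpep (1.22 ± 0.22) and Enpep (2.42 ± 0.36) and the starch-splitting Mgam (1.08 ± 0.12) rose with them. Sucrase-isomaltase (Sis), the most abundant of these, moved least (0.57 ± 0.17, edgeR adjusted p = 0.032), and its call was lost without double knockout replicates 1 or 3 or Cdk19-/- replicates 1, 2 or 3, or without both libraries at the WT level (edgeR adjusted p up to 0.12).

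Genes of this class are known as targets of the homeobox factors CDX2 and HNF1. The promoter of Tmprss15, the hydrolase with the largest rise, is shown from 250 bases before to 50 after its RefSeq start (chr16:79091048-79091347, minus strand, GRCm38.p6), with matches to the letters TTTATNG (CDX) or GTTAAT (an HNF1 site in part) on either strand in capitals:
Tmprss15 promoter: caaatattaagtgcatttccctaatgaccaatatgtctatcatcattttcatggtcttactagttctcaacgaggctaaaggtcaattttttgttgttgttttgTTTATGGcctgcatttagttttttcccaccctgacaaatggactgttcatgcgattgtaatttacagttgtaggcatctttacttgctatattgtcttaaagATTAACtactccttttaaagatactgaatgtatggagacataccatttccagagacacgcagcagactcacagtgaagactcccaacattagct
The CDX match began 146 bases before the start and the HNF1 match 44 bases before it. RefSeq promoters were at hand for 13 of the hydrolase genes, of which 5 held the CDX letters and 2 the HNF1 letters, against 12.5% and 8.24% of all 27025 genes with a promoter and 8.59% and 5.77% of the 11032 of them that were tested. These are matches of letters and no measure of binding.

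Uptake of the products rose as well. Of 19 tested genes of fat absorption 15 were upregulated and 0 downregulated (median 1.00), and 18 rose without both libraries at the WT level. Fabp2, an intracellular fatty acid carrier, had 9345, 6626 and 6415 counts in the double knockout against 2717, 1162 and 1408 in Cdk19-/- (log2 fold change 2.08 ± 0.27, edgeR adjusted p = 0.00034). Cd36, a fatty acid receptor, rose from 392, 187 and 229 to 1669.8, 932 and 1719 (log2 fold change 2.42 ± 0.36, edgeR adjusted p = 0.00072), and Apoa4, an apolipoprotein of chylomicrons, from 17125, 8606 and 10081 to 62799.9, 45047 and 40506 (log2 fold change 2.05 ± 0.27, edgeR adjusted p = 0.00038). In each of these the lowest double knockout library was above the highest Cdk19-/- library, which was replicate 1. Of 15 transporters of sugars, peptides and amino acids 13 rose and 0 fell (median 0.82), as many as without both libraries at the WT level, with the peptide carrier Slc15a1 at 1335, 775 and 1254 against 235, 207 and 304 counts (log2 fold change 2.17 ± 0.24, edgeR adjusted p = 0.00016). The amino acid carrier Slc7a8 (2.20 ± 0.28) and the inositol carrier Slc5a11 (2.37 ± 0.39) were the other 2 largest. Genes of ileal bile acid handling rose in 6 of 8 tested members with 0 falls (median 0.82), 5 without both libraries at the WT level. Slc10a2, the apical bile acid carrier of the ileum, had 125, 144 and 189 counts against 14.1, 17.5 and 23.7 (log2 fold change 3.04 ± 0.40, edgeR adjusted p = 0.00038), and the basolateral exporter genes Slc51a (1.56 ± 0.17) and Slc51b (3.37 ± 0.37) rose with it.

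**Figure D4:**
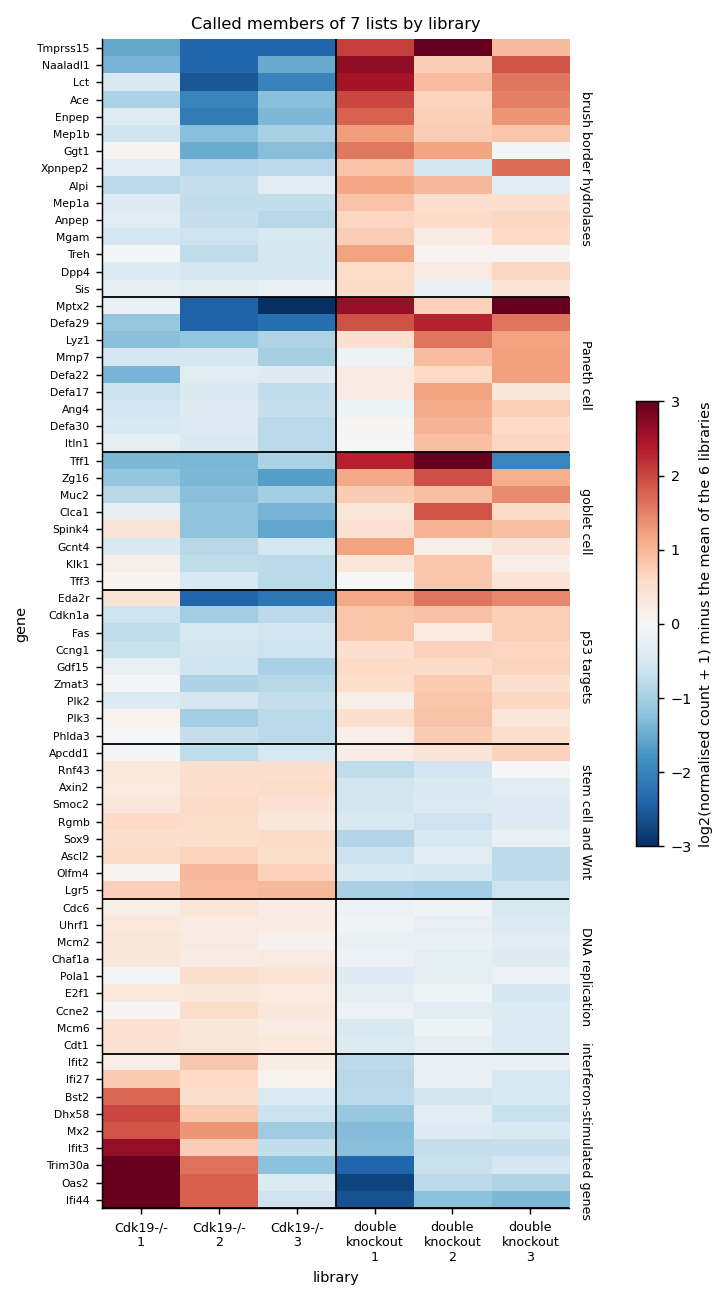
Level of called members of 7 gene lists (up to 9 per list by size of change, 8 for goblet cells and 15 hydrolases) in the 6 libraries, as log2(normalised count + 1) minus the mean of the 6 libraries, with red above and blue below it. The hydrolases are above their mean in nearly all double knockout libraries, and the interferon-stimulated genes are high in Cdk19-/- replicate 1, lower in replicate 2 and lowest of the 3 in replicate 3.

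Transcripts of Paneth cells, which guard the crypt with antimicrobial peptides, were higher too. Of 13 tested Paneth cell genes 9 rose and 0 fell (median 1.20), as many as without both libraries at the WT level. Lysozyme (Lyz1) had 13867, 29699.9 and 22586 counts in the double knockout and 4092, 4373 and 5196 in Cdk19-/- (log2 fold change 2.28 ± 0.22, edgeR adjusted p = 8.3e-05). The alpha-defensin gene Defa29 rose from 244, 98.2 and 111 to 2006, 2671 and 1631 counts (log2 fold change 3.80 ± 0.35, edgeR adjusted p = 6.7e-05) and the pentraxin gene Mptx2 from 113, 23.3 and 8.88 to 798, 212 and 1097 (log2 fold change 3.87 ± 0.75, edgeR adjusted p = 0.0033). No library of one group reached the other, although the double knockout libraries spread widely for Mptx2. The defensin-processing protease Mmp7 (1.42 ± 0.33) and the angiogenin Ang4 (1.20 ± 0.27) rose less. Alpha-defensin genes are near-identical copies, so their single counts are uncertain.

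Goblet cell transcripts rose in 11 of 18 tested members and fell in 0 (median 0.72), 12 without both libraries at the WT level and 5 without Cdk19-/- replicate 2, without Cdk19-/- replicate 3 or without double knockout replicate 2. Muc2, the gel-forming mucin, had 4790.2, 5237 and 7487 counts in the double knockout against 1589, 1186 and 1384 in Cdk19-/- (log2 fold change 2.07 ± 0.17, edgeR adjusted p = 3.0e-05). The lectin Zg16, which is secreted with it, rose from 609, 536 and 431 to 2991, 5236 and 2914 counts (log2 fold change 2.82 ± 0.32, edgeR adjusted p = 0.00019). Groups did not overlap for either gene. Tff1, a trefoil peptide, was uneven, with 37.7, 73.9 and 0.971 counts in the double knockout and 2.01, 1.94 and 2.96 in Cdk19-/-, so that 1 double knockout library was below all Cdk19-/- libraries, and its call (3.95 ± 1.15, edgeR adjusted p = 0.025) was lost without double knockout replicate 2 or Cdk19-/- replicates 1, 2 or 3 (edgeR adjusted p up to 0.10). The isomerase Agr2 (0.76 ± 0.18), the glycosyltransferase Gcnt4 (1.25 ± 0.23), Tff3 (0.81 ± 0.22, lost without double knockout replicate 2 or Cdk19-/- replicates 2 or 3 (edgeR adjusted p up to 0.080) and with the 6 libraries alone) and the inflammasome gene Nlrp6 (0.68 ± 0.22, lost without double knockout replicates 1 or 2 or Cdk19-/- replicates 2 or 3 (edgeR adjusted p up to 0.17) and with the 6 libraries alone) were also higher. The goblet cell factors Spdef (0.33 ± 0.18, edgeR adjusted p = 0.19) and Klf4 (0.23 ± 0.14, edgeR adjusted p = 0.26) missed the threshold. Among 6 tested membrane mucins Muc3 (1916, 1178 and 1809 against 459, 397 and 433 counts, 1.93 ± 0.20) and Muc13 (0.85 ± 0.11) rose, and 0 fell (33.3% called, against 25.3% of all genes tested), with the same counts without both libraries at the WT level.

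Hormone-producing cell transcripts moved in both directions. Of 22 enteroendocrine genes tested 3 rose and 3 fell (27.3% called, near the 25.3% of all genes tested), so the list did not stand apart by its count. Without both libraries at the WT level 3 rose and 4 fell, and the rises numbered 1 without double knockout replicates 1, 2 or 3 or Cdk19-/- replicates 2 or 3. Ghrelin (Ghrl) had 33.7, 76.8 and 36.9 counts in the double knockout and 221, 372 and 234 in Cdk19-/- (log2 fold change -2.48 ± 0.43, edgeR adjusted p = 0.0017), and Neurog3, the factor that sets the lineage, fell from 1644, 2264 and 2514 to 732, 1270.3 and 1334 (log2 fold change -0.94 ± 0.20, edgeR adjusted p = 0.0061). Proglucagon (Gcg) was uneven within a group, with 467, 29.2 and 37.5 counts in Cdk19-/- and 929, 1275 and 1659 in the double knockout (2.86 ± 0.95, edgeR adjusted p = 0.044), and its call was lost without double knockout replicates 1, 2 or 3 or Cdk19-/- replicates 2 or 3 (edgeR adjusted p up to 0.13) and with the 6 libraries alone and on the unstranded column. Scg3 rose (1.69 ± 0.44, lost without double knockout replicate 3 or Cdk19-/- replicate 2 (edgeR adjusted p up to 0.069)), as did Nts (1.52 ± 0.46, lost without double knockout replicates 1 or 2 or Cdk19-/- replicates 1 or 3, or without both libraries at the WT level (edgeR adjusted p up to 0.11) and on the unstranded column), while Tac1 fell (-0.89 ± 0.25, lost without double knockout replicate 1 or Cdk19-/- replicates 2 or 3 (edgeR adjusted p up to 0.082)). Of 13 tuft cell genes tested 1 was lower (7.69%) and 0 higher, with the same counts without both libraries at the WT level but 3 without double knockout replicate 3. Their master factor Pou2f3 was the 1 called, falling from 134, 134 and 131 to 23.5, 58.1 and 71.9 counts (log2 fold change -1.37 ± 0.32, edgeR adjusted p = 0.0085). The tuft cell marker Dclk1 had 63.2, 141 and 179.7 against 221, 191 and 182 counts and missed the threshold (edgeR adjusted p = 0.20).

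The stem cell and Wnt programme fell. Of 22 genes tested 13 were downregulated and 2 upregulated, with a median of -0.74, and 16 fell and 1 rose without both libraries at the WT level, while the rises numbered 0 without Cdk19-/- replicates 2 or 3 and 1 without double knockout replicates 1, 2 or 3. Lgr5 (chromosome 10, 115450311 to 115587780), the receptor that marks crypt stem cells, had 2329.8, 2251 and 2952 counts in the double knockout and 7453, 8675 and 8861 in Cdk19-/- (log2 fold change -1.73 ± 0.15, edgeR adjusted p = 5.2e-05). The double knockout libraries were all below the lowest Cdk19-/- library by more than 2-fold. Olfm4, a secreted stem cell marker, fell from 30284, 55819.6 and 45925 to 21002, 20378 and 16712 (log2 fold change -1.18 ± 0.23, edgeR adjusted p = 0.0031), and the stem cell factor Ascl2 from 1339, 1426 and 1309 to 576, 719 and 521 (log2 fold change -1.17 ± 0.15, edgeR adjusted p = 0.00038). The Wnt feedback genes Axin2 (-0.89 ± 0.10) and Rnf43 (-0.86 ± 0.16) and the crypt factor Sox9 (-1.02 ± 0.15) fell with them. Cd44 rose (0.70 ± 0.17, lost without Cdk19-/- replicates 2 or 3 (edgeR adjusted p up to 0.053) and with the 6 libraries alone), as did Apcdd1, an inhibitor of Wnt signalling (0.87 ± 0.30, lost without double knockout replicates 1, 2 or 3 or Cdk19-/- replicates 2 or 3, or without both libraries at the WT level (edgeR adjusted p up to 0.18) and with the 6 libraries alone, in DESeq2, without a filter, with the replicate block and on the unstranded column).

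Notch components moved in both directions, with 3 of 13 tested members higher and 4 lower (53.8% called, against 14.4% higher, 11.0% lower and 25.3% called of all genes tested), and 3 higher and 6 lower without both libraries at the WT level. The receptor Notch1 fell from 1065, 1294 and 1299 to 721, 515 and 532 counts (log2 fold change -1.05 ± 0.13, edgeR adjusted p = 0.00026), the glycosyltransferase Lfng that tunes it fell by 1.29 and the ligand Dll4 by 0.73 on the log2 scale. The receptor Notch3 (1.46 ± 0.20), the ligand Jag1 (0.91 ± 0.12) and the feedback gene Nrarp (0.63 ± 0.17, lost without double knockout replicate 1 or Cdk19-/- replicates 2 or 3 (edgeR adjusted p up to 0.084)) rose. Hes1, the main Notch effector, had 2099, 2003 and 1792 against 2073, 2202 and 2190.5 counts, which overlapped (log2 fold change -0.13 ± 0.08, edgeR adjusted p = 0.24). Of 22 intestinal transcription factors 2 rose and 5 fell (31.8% called, near the 25.3% of all genes), so the list did not stand apart by its count. Without both libraries at the WT level 2 rose and 6 fell, with rises numbering 1 without Cdk19-/- replicates 1 or 2 and falls numbering 3 without double knockout replicate 2 or Cdk19-/- replicate 2. The vitamin D receptor Vdr had 7391, 7051 and 7007 counts in the double knockout and 11848, 15713 and 16311 in Cdk19-/- (log2 fold change -1.03 ± 0.14, edgeR adjusted p = 0.00051), and the carbohydrate sensor Mlxipl (-0.60 ± 0.14) fell as well. Isx, a repressor of vitamin A uptake, rose (0.64 ± 0.11).

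Genes of cell division fell together. Of 26 DNA replication genes tested 18 were downregulated and 0 upregulated (median -0.46), and of 20 mitotic genes 12 were downregulated and 0 upregulated (median -0.47), against -0.01 over all genes tested. Without both libraries at the WT level of Cdk19 the counts were 10 and 8, and without Cdk19-/- replicate 2 they were 9 and 5. Without double knockout replicate 3 alone the replication count was 10. Cdt1, which loads the replicative helicase, had 1142, 1221 and 1137 counts in the double knockout and 2044, 1926 and 1884 in Cdk19-/- (log2 fold change -0.74 ± 0.12, edgeR adjusted p = 0.00090). Mcm6, a subunit of that helicase, fell from 4431, 4074 and 3739 to 2364, 2893 and 2433 (log2 fold change -0.67 ± 0.13, edgeR adjusted p = 0.0028). All Cdk19-/- libraries were above all double knockout libraries for both. The cyclins Ccnb2 (-0.47 ± 0.10), Ccne2 (-0.64 ± 0.19, lost without double knockout replicates 2 or 3 or Cdk19-/- replicates 2 or 3 (edgeR adjusted p up to 0.11)) and Ccna2 (-0.45 ± 0.14, lost without double knockout replicates 2 or 3 or Cdk19-/- replicates 2 or 3, or without both libraries at the WT level (edgeR adjusted p up to 0.11)) were lower. Among mitotic genes the kinesin Kif11 had 1204, 1078 and 1116 counts in the double knockout and 1309, 2651 and 2534 in Cdk19-/- (-0.93 ± 0.23), with replicate 1 nearer to the double knockout than to replicates 2 and 3, and it lies on chromosome 19. The checkpoint kinase Ttk (-0.72 ± 0.17) and the spindle protein Nusap1 (-0.61 ± 0.13) also fell.

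E2F factors are known to drive replication genes. The promoter of Mcm6 is shown because it held 3 matches to the letters TTTNNCGC on either strand, 2 of them overlapping (chr1:128359656-128359955, minus strand, GRCm38.p6, matches in capitals):
Mcm6 promoter: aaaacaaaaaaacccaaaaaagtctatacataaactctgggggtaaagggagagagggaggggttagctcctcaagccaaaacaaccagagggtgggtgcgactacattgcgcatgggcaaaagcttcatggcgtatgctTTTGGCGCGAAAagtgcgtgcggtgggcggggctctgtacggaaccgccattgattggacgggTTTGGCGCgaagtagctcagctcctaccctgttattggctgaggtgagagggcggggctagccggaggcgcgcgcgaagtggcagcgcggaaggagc
The matches began 110, 106 and 47 bases before the RefSeq start. Promoters were at hand for 19 replication genes, of which 9 held the letters, all 9 among the 14 that were downregulated, against 5.93% of all 27025 genes with a promoter and 9.38% of the 11032 of them that were tested. Of 17 mitotic genes 1 held them. Such matches of letters are no measure of binding.

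Growth genes followed. Myc, the transcription factor that drives ribosome production, had 2248, 2737 and 2493 counts in the double knockout against 4284, 3862 and 4163 in Cdk19-/- (log2 fold change -0.72 ± 0.13, edgeR adjusted p = 0.0018), with no overlap. In the list of Myc and ribosome biogenesis genes 8 of 20 members fell and 0 rose (median -0.37), 6 without both libraries at the WT level, and 5 without double knockout replicate 3, without Cdk19-/- replicate 2 or without replicate 3. The ribosome assembly chaperone Npm1 fell by 0.55, and Polr1a, the large subunit of RNA polymerase I, fell by 0.53 on the log2 scale, although the call of Polr1a was lost without both libraries at the WT level (edgeR adjusted p = 0.058).

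Targets of p53, the tumour suppressor that halts damaged cells, rose. Of 27 genes tested 21 were upregulated and 1 downregulated, with a median of 0.74, and the counts were 19 and 1 without both libraries at the WT level. Cdkn1a, the cell cycle inhibitor p21, had 5510.4, 5709 and 5140.1 counts in the double knockout and 2059, 1524 and 1801 in Cdk19-/- (log2 fold change 1.60 ± 0.13, edgeR adjusted p = 3.4e-05). Ccng1 rose from 2968, 3252 and 3067 to 6733, 7674 and 7399.9 counts (log2 fold change 1.23 ± 0.08, edgeR adjusted p = 6.5e-06), and the death receptor Fas, on chromosome 19, from 66.5, 81.7 and 76.0 to 203, 139.8 and 188 (log2 fold change 1.24 ± 0.20, edgeR adjusted p = 0.00098). In these 3 genes the groups were well apart. The receptor Eda2r had 475, 655 and 586 counts against 289, 39.9 and 47.4, where Cdk19-/- replicate 1 lay between both groups, and its log2 fold change was 2.19 ± 0.53 and 3.68 without both libraries at the WT level, with the call lost with the 6 libraries alone. Mdm2, the ligase that degrades p53 (0.71 ± 0.09), and the pro-apoptotic Bax (0.85 ± 0.11) rose, while the repair gene Xpc fell by 0.42 on the log2 scale. Trp53 itself had 2995, 3411 and 3373 against 4095, 3685 and 3714 counts and missed the threshold (-0.23 ± 0.09, edgeR adjusted p = 0.076).

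The promoter of Ccng1, the p53 target with the smallest p-value, is shown with its match to the p53 decamer on either strand in capitals (chr11:40755237-40755536, minus strand, GRCm38.p6):
Ccng1 promoter: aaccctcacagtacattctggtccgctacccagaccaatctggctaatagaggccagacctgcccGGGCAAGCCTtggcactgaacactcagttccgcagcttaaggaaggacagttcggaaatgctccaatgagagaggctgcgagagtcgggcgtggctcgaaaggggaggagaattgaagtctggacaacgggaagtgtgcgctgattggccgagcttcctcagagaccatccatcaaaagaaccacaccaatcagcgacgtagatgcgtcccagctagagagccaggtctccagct
The match began 185 bases before the RefSeq start. Promoters were at hand for 21 of the targets, of which 8 held such a decamer, and for 17 of the upregulated ones, of which 7 did. The shares were 9.55% of all 27025 genes with a promoter and 8.43% of the 11032 of them that were tested. These are matches of letters and no measure of binding.

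Genes of salt and water transport split. Of 21 genes for chloride, bicarbonate and proton transport tested, 11 rose and 3 fell (median 0.66), and 12 rose and 4 fell without both libraries at the WT level (median 0.39). Cftr, the chloride channel of crypt cells, had 2117, 1949 and 2091 counts in the double knockout and 3501, 3925 and 3991 in Cdk19-/- (log2 fold change -0.89 ± 0.20, edgeR adjusted p = 0.0072). Kcnq1, a potassium channel that sustains chloride secretion, fell from 6181, 7055 and 7008 to 3566, 4254 and 4028 (log2 fold change -0.77 ± 0.10, edgeR adjusted p = 0.00031). Both were lower in each double knockout library than in any Cdk19-/- library. The water channel Aqp1 also fell (-0.79 ± 0.23), a call lost without Cdk19-/- replicate 2 (edgeR adjusted p = 0.081) and with the 6 libraries alone. Among the rises were Guca2b, the hormone uroguanylin that acts on Cftr (5682, 6261 and 6943 against 3329.8, 1658 and 1825 counts, 1.47 ± 0.26), the exchanger Slc4a11 (1.75 ± 0.30) and the chloride channel gene Slc26a9 (21.4, 98.5 and 52.4 against 8.06, 9.72 and 2.96 counts, 3.03 ± 0.79, lost without double knockout replicate 2 or Cdk19-/- replicate 3 (edgeR adjusted p up to 0.064)). Of members chosen by role after the values were seen, Slc26a3, the chloride-bicarbonate exchanger of surface cells, rose too (1.40 ± 0.21).

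Interferon-stimulated genes had a low median in the double knockout that rested on few libraries. Of 30 tested 9 fell and 0 rose (of all genes tested 25.3% were called and 11.0% fell), with a median of -1.04, and of -0.49 without both libraries at the WT level. Ifi44 had 1005, 215 and 39.5 counts in Cdk19-/- and 9.18, 25.6 and 23.3 in the double knockout (log2 fold change -4.42 ± 1.12, edgeR adjusted p = 0.013), and Oas2, an antiviral synthetase, 1645, 665 and 143 and 27.5, 110.3 and 102 (log2 fold change -3.35 ± 0.85, edgeR adjusted p = 0.014). Replicate 1 of Cdk19-/- was thus the highest and replicate 3 the lowest of that group for both, and the call of Ifi44 was lost without Cdk19-/- replicate 1, or without both libraries at the WT level (edgeR adjusted p up to 0.088) and that of Oas2 without both libraries at the WT level (edgeR adjusted p = 0.067). Summed over the list, the Cdk19-/- libraries had 28783, 14894 and 7570 counts, the double knockout 7104 to 10756, WT 4688 to 5720 and Cdk8-/- 5983 to 14228. The count of falls was 1 without both libraries at the WT level of Cdk19, where 13.4% of all genes fell, 3 without double knockout replicate 1 or Cdk19-/- replicates 1 or 2, 4 without double knockout replicates 2 or 3 and 14 without Cdk19-/- replicate 3. The induced GTPase Irgm1 (-1.13 ± 0.31, lost without double knockout replicates 1 or 2, or without both libraries at the WT level (edgeR adjusted p up to 0.061) and with the 6 libraries alone) was the 1 lower of 7 tested genes of its class. The count of this class was 0 without both libraries at the WT level, 0 without double knockout replicates 1 or 2 and 3 without Cdk19-/- replicate 3. Irgm1 and Ifi27l2a (5.10, 17.7 and 25.2 against 1282, 341 and 37.5 counts) had the same order among the Cdk19-/- libraries. Of 10 antigen presentation genes tested edgeR and DESeq2 called 0, with 2 higher without both libraries at the WT level, and the most abundant, H2-K1, had 7832, 9206 and 8919 against 8825, 5879.8 and 4861 counts.

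Genes of inflammation and repair were higher in part, while of all genes tested 25.3% were called, 14.4% higher and 11.0% lower. Of 14 NF-kB targets 5 rose and 0 fell (35.7% called, median 0.77), as many as without both libraries at the WT level, and 3 without Cdk19-/- replicate 3 and 8 without double knockout replicate 1. Duox2, which makes hydrogen peroxide at the mucosa, had 403, 558 and 265 counts in the double knockout and 130, 61.3 and 59.2 in Cdk19-/- (log2 fold change 2.29 ± 0.42, edgeR adjusted p = 0.0023). The chemokines Cxcl1 (1.83 ± 0.52, lost without double knockout replicate 3 or Cdk19-/- replicates 1, 2 or 3, or without both libraries at the WT level (edgeR adjusted p up to 0.16)) and Ccl20 (1.80 ± 0.47, lost without Cdk19-/- replicate 3, or without both libraries at the WT level (edgeR adjusted p up to 0.074)) rose less firmly. Of 10 genes of YAP signalling and regeneration 5 rose and 0 fell (median 0.86), with 2 higher without both libraries at the WT level (median 0.55) and 3 without double knockout replicates 2 or 3 or Cdk19-/- replicates 1 or 3. The growth factor Areg rose from 578, 295 and 317 to 922, 1907 and 1491 counts (log2 fold change 1.86 ± 0.29, edgeR adjusted p = 0.00085), and Msln rose as well (1.26 ± 0.27). Of 14 immediate early genes 4 rose and 1 fell (35.7% called), 5 and 1 without both libraries at the WT level, and the rises were 1 without Cdk19-/- replicate 2, 2 without double knockout replicates 2 or 3 or Cdk19-/- replicate 3 and 7 without Cdk19-/- replicate 1. Egr1 fell from 1469.9, 961 and 1109.5 to 152, 217 and 328 counts (log2 fold change -2.34 ± 0.39, edgeR adjusted p = 0.0014), with no overlap, whereas Klf6 (0.70 ± 0.15), Atf3 (0.81 ± 0.25, lost without double knockout replicates 1, 2 or 3 or Cdk19-/- replicates 2 or 3 (edgeR adjusted p up to 0.13) and with the 6 libraries alone) and Zfp36 (0.68 ± 0.18, lost without Cdk19-/- replicate 2 (edgeR adjusted p = 0.072)) rose. Lypd8, which keeps bacteria off the epithelium, rose as 1 of 5 antimicrobial genes (20.0% called), 2 without both libraries at the WT level (0.83 ± 0.26, lost without double knockout replicates 1 or 2 or Cdk19-/- replicates 2 or 3 (edgeR adjusted p up to 0.14) and with the 6 libraries alone and with the replicate block).

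Genes of lipid synthesis differed widely among the double knockout libraries. Of 22 cholesterol synthesis genes 8 were upregulated and 0 downregulated (36.4% called, against 25.3% of all genes tested, median 0.73). The count was 14 without both libraries at the WT level, 4 without Cdk19-/- replicate 2, 5 without Cdk19-/- replicate 3 and 15 without double knockout replicate 3. Summed over the list, the double knockout had 92809, 60988 and 51101 counts and Cdk19-/- 44082 to 52900, so replicate 3 lay within the range of Cdk19-/-. Sc5d, an enzyme late in the pathway, had 4523, 2774 and 2347 counts in the double knockout and 1551, 1294 and 1508 in Cdk19-/- (log2 fold change 1.15 ± 0.22, edgeR adjusted p = 0.0030). Fdps (1.18 ± 0.28, lost without Cdk19-/- replicate 2 (edgeR adjusted p = 0.051)) and Mvd (1.15 ± 0.36, lost without double knockout replicate 1 or Cdk19-/- replicates 2 or 3 (edgeR adjusted p up to 0.17) and with the 6 libraries alone) rose with the same order of double knockout libraries, replicate 1 being highest. Of 12 fatty acid synthesis genes 3 rose and 1 fell (33.3% called, against 25.3% of all genes tested), 5 and 0 without both libraries at the WT level, with falls numbering 0 without double knockout replicates 2 or 3 or Cdk19-/- replicates 1 or 2 and 3 without double knockout replicate 1. Their sums were 101625, 51136 and 38706 counts against 49702 to 57401, so that 1 double knockout library was above, 1 within and 1 below the range of Cdk19-/-. The desaturase Scd1, on chromosome 19, had 15196, 4863 and 2134 against 1524, 799 and 995 counts (log2 fold change 2.74 ± 0.63, edgeR adjusted p = 0.0082), and Pnpla3 (3.36 ± 0.70) and the elongase Elovl6 (1.07 ± 0.25) rose too, while Acly fell by 0.32 on the log2 scale, a call lost without double knockout replicates 2 or 3 or Cdk19-/- replicates 1 or 2, or without both libraries at the WT level (edgeR adjusted p up to 0.15) and with the 6 libraries alone. Fatty acid oxidation genes were called in 5 of 20 cases (25.0%), near the share over all genes, 4 up and 1 down, 6 and 1 without both libraries at the WT level, with rises numbering 2 without Cdk19-/- replicates 2 or 3 and falls numbering 0 without double knockout replicates 1 or 2 or Cdk19-/- replicates 1, 2 or 3. The rises included the factor Creb3l3 (1.40 ± 0.24) and the dehydrogenase Acadl (0.51 ± 0.13, lost without Cdk19-/- replicates 2 or 3 (edgeR adjusted p up to 0.076)).

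Glycolysis and hypoxia genes were deregulated in 2 of 22 cases (9.09%, below the 25.3% of all genes), both rises. These numbered 3 without both libraries at the WT level and 1 without double knockout replicates 1 or 2 or Cdk19-/- replicates 2 or 3. They were Hk1 (0.81 ± 0.15) and Car9 (0.83 ± 0.26, lost without double knockout replicates 1 or 2 or Cdk19-/- replicates 2 or 3 (edgeR adjusted p up to 0.15) and with the 6 libraries alone). Genes of the unfolded protein and integrated stress responses were called in 5 of 23 cases (21.7%, below the 25.3% of all genes), 3 up and 2 down, with 7 up and 1 down without both libraries at the WT level and the rises numbering 1 without double knockout replicates 1 or 2 or Cdk19-/- replicates 2 or 3. The chaperone partner Dnajb9 rose (0.71 ± 0.12), and Creld2 (0.46 ± 0.15, lost without double knockout replicates 1 or 2 or Cdk19-/- replicates 2 or 3 (edgeR adjusted p up to 0.15) and with the 6 libraries alone) and the chaperone Hspa5 (0.44 ± 0.13, lost without double knockout replicates 1 or 2 or Cdk19-/- replicates 2 or 3 (edgeR adjusted p up to 0.099) and with the 6 libraries alone) were the other rises. The falls were the amino acid carrier Slc7a5, at 689, 803 and 582 against 1358, 1488 and 1489 counts (log2 fold change -1.06 ± 0.13, edgeR adjusted p = 0.00029), and the serine synthesis gene Psat1 on chromosome 19 (-0.69 ± 0.20), whose call was lost without double knockout replicates 1 or 3 or Cdk19-/- replicates 2 or 3, or without both libraries at the WT level (edgeR adjusted p up to 0.082). The falls numbered 1 without double knockout replicates 1 or 3 or Cdk19-/- replicates 2 or 3. Metal handling genes were called in 4 of 12 cases (33.3%, against 25.3% of all genes), with 2 rises, 4 without both libraries at the WT level and 5 without double knockout replicate 3, and 2 falls, 2 without both and 1 without double knockout replicates 2 or 3 or Cdk19-/- replicate 3. The zinc importer Slc39a4 rose from 1380.3, 1034 and 1016 to 3309, 3393 and 3006 counts (log2 fold change 1.50 ± 0.16, edgeR adjusted p = 0.00016) and the iron exporter partner Heph rose (1.03 ± 0.13), while Mt2 fell (-0.85 ± 0.20). The duodenal iron reductase Cybrd1 had 30.2, 1298 and 4043 counts in Cdk19-/- and 82.6, 17.7 and 9.71 in the double knockout (-5.62 ± 1.61), with Cdk19-/- replicate 1 among the double knockout values, and its call was lost without double knockout replicates 2 or 3 or Cdk19-/- replicate 3 (edgeR adjusted p up to 0.084).

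Deletion of Cdk8 with Cdk19 intact is given by Cdk8-/- against WT, a comparison that shares no library with the former. The Cdk8-/- libraries also had high Esr1. Here too, deletion of Cdk8, the recombinase and the mice of origin cannot be told apart. Of the 3953 deregulated genes 88.4% (Wilson 95% interval 87.4 to 89.4, counting error only) had the same sign there, against 70.0% of all genes tested. The share was 89.5% for upregulated and 87.0% for downregulated genes, and 86.0% without both libraries at the WT level. Cdk8-/- against WT deregulated 804 genes (5.15%), 436 up (2.79%) and 368 down (2.36%). Of these 619 were also deregulated between the double knockout and Cdk19-/-, 616 with the same sign. Paneth cell genes were changed at least as much there (12 of 13 higher, median 1.62 against 1.20). The p53 targets had fewer calls and a smaller median (12 of 27 higher against 21, median 0.54 against 0.74). The hydrolases had a smaller median (1 of 16 higher, median 0.40 against 1.63), as did DNA replication genes (0 of 26 called, -0.07 against -0.46) and stem cell and Wnt genes (2 higher and 1 lower of 22, -0.10 against -0.74). These differences of medians were not tested as lists.

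**Figure D5:**
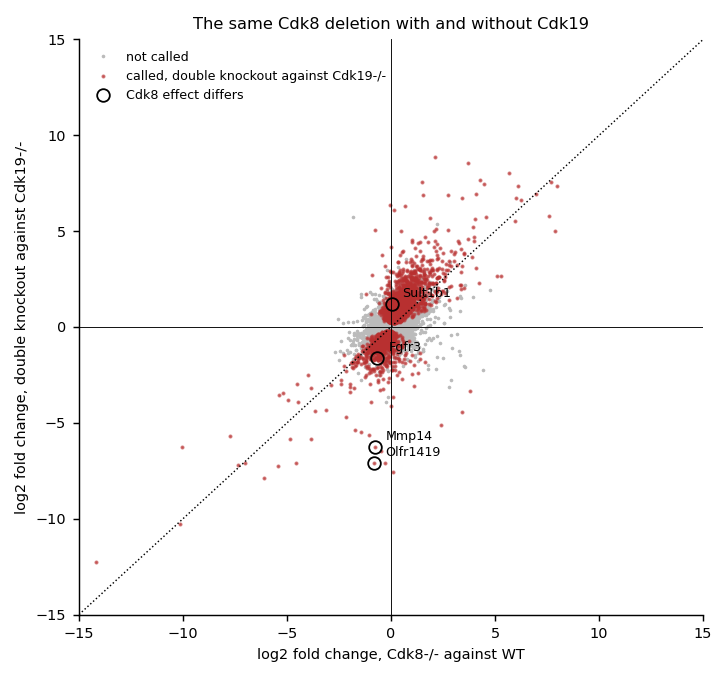
Log2 fold change of each of the 15602 genes in the double knockout against Cdk19-/- (vertical axis) and in Cdk8-/- against WT (horizontal axis), with deregulated genes in red, a dotted line of equal change and circles on the 4 genes whose Cdk8 effect differed. Of the red points 88.4% lie in the quadrants of equal sign.

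Tested gene by gene, the difference between both Cdk8 effects passed the threshold for 4 genes (0.0256%), with 2269 (14.5%) at an unadjusted p under 0.05, and for 728 without both libraries at the WT level of Cdk19. In that setting the Cdk19-/- side is the close pair of replicates 2 and 3 alone. The count was 0 to 467 on leaving out single libraries of all 4 genotypes, 0 without Cdk19-/- replicates 2 or 3 and 467 without Cdk19-/- replicate 1. Fgfr3 fell further between the groups labelled as Cdk19 mutant (-1.63 against -0.65), and Sult1b1, a sulfotransferase, rose by 1.18 against 0.02. It had 3522, 3313 and 2984 counts in the double knockout against 1491, 1265 and 1572 in Cdk19-/-, beside 2182, 1887 and 2355 in Cdk8-/- and 2036, 2158 and 2139 in WT. Mmp14, given above, and the olfactory receptor gene Olfr1419 were the others.

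Both groups may also be set beside WT, though these comparisons share libraries with the main one and are given as values. For the hydrolases the median log2 fold change was -0.71 in Cdk19-/- against WT and 0.93 in the double knockout against WT. Lct had a mean of 1534 counts in WT, 508 in Cdk19-/- and 4689 in the double knockout, so WT lay between both. Lgr5 had means of 5886, 8330 and 2511 in the same order, again with WT between them. The p53 targets had a median of -0.07 in Cdk19-/- and 0.73 in the double knockout against WT, and Cdkn1a had means of 2023, 1795 and 5453 in WT, Cdk19-/- and the double knockout, with WT nearer to Cdk19-/-. Myc was at 3853, 4103 and 2493, likewise. The DNA replication genes had medians of -0.08 and -0.51.

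Senexin B, an inhibitor of the kinase activity of CDK8 and CDK19, was given to organoids for 16 or 24 h in another set of libraries with DMSO controls, fitted on their own, where 4252 of 15467 genes (27.5%) were deregulated at 24 h (2293 up, 14.8%, and 1959 down, 12.7%) and 1198 (7.75%) at 16 h. Of the deregulated genes 47.2% (Wilson 45.6 to 48.8) had the same sign after 24 h and 50.8% (49.1 to 52.4) after 16 h, against 49.0% and 50.4% of all 14261 genes tested in both experiments. Without both libraries at the WT level the share at 24 h was 54.9%. Among the genes deregulated in both, 44.4% of 1332 at 24 h and 65.5% of 504 at 16 h had the same sign. Paneth cell genes went the other way at 24 h (9 of 13 lower, median -0.74) and 16 h (3 of 13 lower, median -0.28). DNA replication genes (14 of 26 higher, median 0.27) and Myc and ribosome biogenesis genes (11 of 20 higher, median 0.34) did so at 24 h, whereas at 16 h 0 of 26 (median -0.03) and 2 of 20 (median 0.08) were higher. The p53 targets (14 of 27 higher and 3 lower at 24 h, 8 and 1 at 16 h) and YAP and regeneration genes (5 of 7 tested higher at both times, medians 1.06 and 0.72) had the same direction as in the double knockout.

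Transcripts of other cell types were few, and the markers called were higher in the double knockout. The 10 fibroblast markers summed to 2250 to 3526 counts in the double knockout and 1838 to 1899 in Cdk19-/-, mostly from Fbln1 (3332, 2033 and 2243 against 1662, 1574 and 1585, 0.66 ± 0.15), and Col1a2, Col3a1, Lum and Thy1 were at 0 in all 6 libraries. Acta2, on chromosome 19, had 6.12, 23.6 and 18.5 against 0, 3.89 and 1.97 counts, and its call was lost without double knockout replicates 2 or 3 or Cdk19-/- replicates 1, 2 or 3, or without both libraries at the WT level (edgeR adjusted p up to 0.15). Vim had 188, 191 and 236 against 226, 257 and 309 counts. The 10 immune cell markers summed to 306 to 333 and 237 to 289 counts, with Itgam (30.6, 11.8 and 18.5 against 2.01, 2.92 and 5.92) and Ptprc (10.2, 14.8 and 17.5 against 3.02, 0 and 0.987, lost without Cdk19-/- replicates 2 or 3 (edgeR adjusted p up to 0.077)) called higher. Endothelial markers summed to 74.5 to 139.8 and 48.4 to 89.7, muscle markers to 68.3 to 81.7 and 29.2 to 52.4, and neural and glial markers to 237 to 458 and 147 to 190 counts. Of these Tek (1.80 ± 0.40), Tagln (0.78 ± 0.25, lost without double knockout replicates 1, 2 or 3 or Cdk19-/- replicate 2 (edgeR adjusted p up to 0.13) and with the 6 libraries alone, without a filter and on the unstranded column) and S100b (152, 276 and 179 against 38.3, 18.5 and 24.7 counts, 2.89 ± 0.48) were called higher. The casein gene Csn3 had 2.04, 13.8 and 16.5 against 1.01, 0 and 0 counts. Without both libraries at the WT level, 1 fibroblast, 2 immune cell, 1 endothelial and 1 muscle marker were called higher. Of the neural and glial markers 1 was then called higher and 1 lower. The part of transcripts of other cell types in the changes above was not tested. Of the sex-linked genes, Xist had 11273, 12337 and 17428 counts in the double knockout and 16320.4, 20238 and 20452 in Cdk19-/- (-0.47 ± 0.17, edgeR adjusted p = 0.062), and the Y-linked Ddx3y, Kdm5d and Uty had 0 counts in all 6 libraries. Xist was called lower in DESeq2, with the replicate block, without double knockout replicate 3 or Cdk19-/- replicate 1, and without both libraries at the WT level (-0.80).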

How the data were processed

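RNA of 24 libraries in 8 groups of 3 was sequenced as single-end 50 bp reads. The authors aligned the reads to GRCm38.p6 with STAR (version 2.6.0c in the submitters' processing notes), counted them per gene of Ensembl release 93 and deposited raw counts for 54146 genes per library. Column 4, 1 of the 2 strand columns, was used as deposited. In the 6 libraries compared it held 49.6 to 49.7% of the reads in both strand columns, so reads of overlapping genes on opposite strands could not be told apart, and 1332 of the deregulated genes overlap an exon on the other strand. Rows that name no gene (unmapped, multimapping, without a gene or ambiguous) were left out. In the 6 libraries compared they held 63.1 to 65.1% of reads. Multimapping reads made up 19.5 to 20.1% in the double knockout and 22.1 to 22.4% in Cdk19-/-. The 6 libraries held 14660042 to 15473180 reads on genes. A library without reads of a gene allows up to 3 counts of it, for counting error only.

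Genes passing filterByExpr were tested with edgeR 4.0.16 (R 4.3.3, TMM scaling, quasi-likelihood test) in 1 model of the 12 genotype libraries with group as the only term. A gene was called deregulated at a Benjamini-Hochberg adjusted p under 0.05. The standard errors are the size of the log2 fold change divided by the square root of the F statistic of that test. They are approximate, most of all for genes near 0 counts in a group. Normalised counts are counts divided by the effective library size and multiplied by its mean over the 12 libraries. The p-values weigh the difference against the spread between the 3 libraries within a group, pooled over the 4 groups of the model. Senexin B and DMSO libraries, in which the same column held 87.9 to 90.5% of both strand columns, were fitted separately. DESeq2 1.42.0, other filters, scalings, columns and left-out libraries were tried as alternatives. The omission of Cdk19-/- replicate 1 with double knockout replicate 3, and of chromosome 19, was chosen after seeing the data. In simulated counts of 15602 genes, 187 of 200 changed genes were recovered and 8 unchanged genes called in this comparison. Same-numbered libraries deviated together with r of 0.12, 0.03 and 0.05, so the numbers were not taken as pairs.

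Genes were named by rule, apart from those said to be chosen later: targets and kinase module, genes the study names, among genes with a mean of at least 50 counts and groups that did not overlap the 10 largest rises and falls and the 5 smallest p-values per direction, and up to 3 called members per list and direction. A few genes that this rule names are not reported here. The libraries compared, the gene lists and this rule were chosen with earlier results of these data known. Promoter sequences are those of RefSeq for GRCm38.p6, and exon 2 of Cdk8 was taken from the GRCm38 annotation and transcripts.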

Additional observations from a re-analysis of the deposited data

Results flagged for a closer look

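The effect of Cdk8 loss differed with and without the labelled Cdk19 mutation for 4 genes in edgeR's test of the difference itself. The difference of both log2 fold changes was -6.29 for Olfr1419 (edgeR adjusted p = 0.024), an olfactory receptor gene on chromosome 19. It had 67.5, 70.0 and 51.3 normalised counts in Cdk19-/- and 1.02, 0 and 0 in the double knockout, against 29.2, 28.8 and 50.1 in WT and 16.1, 26.5 and 18.2 in Cdk8-/-, so its fitted value depends on the prior count. For Mmp14, a matrix protease, the difference was -5.47 (edgeR adjusted p = 0.024), and WT had 518, 601 and 1090 counts. For the sulfotransferase gene Sult1b1 it was 1.16 (edgeR adjusted p = 0.024), and for the growth factor receptor gene Fgfr3 -0.98 (edgeR adjusted p = 0.039), with 470, 481 and 474 counts in WT and 304, 305 and 296 in Cdk8-/-. Sult1b1 had 3522, 3313 and 2984 counts in the double knockout and 1491, 1265 and 1572 in Cdk19-/-, against 2182, 1887 and 2355 in Cdk8-/- and 2036, 2158 and 2139 in WT. How many genes passed this test moved with single libraries, as given in the next section.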

How the results depend on the processing

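The count of 3953 deregulated genes was 2867 to 4351 over DESeq2, DESeq2 size factors in edgeR, no filter, a minimum of 10 counts per library, a fit of the 6 libraries alone, the replicate block and the unstranded column. Leaving out single libraries gave 2399 (without Cdk19-/- replicate 2) to 4318 deregulated genes (1364 to 2303 up, 1035 to 2015 down), and leaving out Cdk19-/- replicate 1 with double knockout replicate 3 gave 4504 (2389 up, 2115 down). The count of genes beyond 2-fold, 1182, was 751 with that minimum, where fewer genes are tested, and 191 in the test against a 2-fold change. The 4 genes whose Cdk8 effect differed became 486 in DESeq2, 566 without a filter, 0 with that minimum, 9 on the unstranded column, 728 without both libraries and 0 to 467 without single libraries (467 without Cdk19-/- replicate 1, 392 without Cdk8-/- replicate 3, 71 and 42 without double knockout replicates 2 and 3, 7 without Cdk8-/- replicate 2, and 0 without Cdk19-/- replicate 2 or 3, WT replicate 1 or 2, or Cdk8-/- replicate 1). The cause of these shifts was not tested. The share with the same sign in Cdk8-/- against WT was 87.0% without a filter, 90.2% with the 6 libraries only, 86.3 to 92.4% without single libraries and 86.0% without both. Under Senexin B it was 44.4 to 52.0% (24 h) and 49.99 to 53.8% (16 h) without single libraries, and 54.9% at 24 h without both.

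With the replicate block 3922 genes were deregulated (2204 up, 1718 down) and 8 differed in their Cdk8 effect. The falls of interferon-stimulated genes went from 9 to 4, the rises of stem cell and Wnt genes from 2 to 1 and that of antimicrobial genes from 1 to 0. Double knockout replicate 3 deviated most like Cdk19-/- replicate 2, so not every library was closest to its own number. Of 145 called genes named by the rule, 99 kept the call in every alternative that tested them and 0 changed direction.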

Other observations

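Ribosomal protein genes, a family not on the lists and chosen after its values were seen, were lower in the double knockout. Of 74 tested, 50 were downregulated and 0 upregulated (67.6% called, against 25.3% of all genes), with a median log2 fold change of -0.64 against -0.01 over all genes tested. The counts were 44 lower and 2 higher without Cdk19-/- replicate 1 and double knockout replicate 3, and 42 to 47 lower without single libraries. Rps18 had 502, 698 and 691 normalised counts in the double knockout against 1302, 1176 and 1181 in Cdk19-/- (-0.95 ± 0.13, log2 fold change ± SE, edgeR adjusted p = 0.00043), and Rpl35 had 1096, 1313 and 1204 against 2356, 2253 and 2071 (-0.89 ± 0.12). These genes have many near-identical copies, so their single counts are uncertain, and the share of multimapping reads differed between the groups as well (19.5 to 20.1% in the double knockout, 22.1 to 22.4% in Cdk19-/-). Its part in the result was not tested.

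Among enzymes that detoxify lipophilic compounds, likewise chosen after the values were seen, 15 of 48 cytochrome P450 genes rose and 8 fell (47.9% called), and 5 of 11 UDP-glucuronosyltransferase genes (45.5%) and 3 of 7 sulfotransferase genes (42.9%) rose with 0 falls. Of all genes tested 25.3% were called, 14.4% higher and 11.0% lower, and since the families were picked for their values, these shares are a description. Without Cdk19-/- replicate 1 and double knockout replicate 3, 14 P450 genes rose and 9 fell. In that setting 6 UDP-glucuronosyltransferase and 4 sulfotransferase genes rose with 0 falls. Without Cdk19-/- replicate 2 the P450 and UDP-glucuronosyltransferase rises were 9 and 3. Sult6b2 had 1909, 1902 and 1023 counts in the double knockout against 243, 125 and 165 in Cdk19-/- (3.18 ± 0.29), and Gstp2, a glutathione S-transferase gene on chromosome 19, had 205, 271 and 135 against 16.1, 9.72 and 14.8 (3.90 ± 0.43). Cyp2c55, also on chromosome 19, fell from 1808, 2985 and 3517 to 403, 1064 and 911 counts (-1.80 ± 0.41). Hox genes, which pattern the body axis, rose in 5 of 9 tested members (55.6%) with 0 falls, 3 without Cdk19-/- replicate 3 and 8 without Cdk19-/- replicate 1, alone or with double knockout replicate 3. Hoxa3 had 202, 229 and 295 counts in the double knockout against 132, 2.92 and 9.87 in Cdk19-/- (2.33 ± 0.75, edgeR adjusted p = 0.039). Genes of respiratory complex I were called in 2 of 44 cases (4.55%), 1 up and 1 down, while 14 rose without Cdk19-/- replicate 1 and double knockout replicate 3, 9 without double knockout replicate 3 and 4 without Cdk19-/- replicate 1.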
